A study of Mus musculus with 12 samples.

Results

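The genes described here encode 4 families of enzymes that modify drugs, hormones, bile acids and other small molecules in liver: the UDP-glucuronosyltransferases (UGTs), the cytosolic sulfotransferases (SULTs), the glutathione transferases (GSTs) and the flavin-containing monooxygenases (FMOs). They were chosen by gene symbol, with earlier results of these data known, as every gene of the Ugt1 to Ugt3, Sult, Gst (classes alpha, kappa, mu, omega, pi, theta and zeta) and Fmo families that had a probeset of its own on the array, with *Sult1e1* left out. This gave 49 of the 19938 genes measured: 10 UGTs, 15 SULTs, 19 GSTs and 5 FMOs. Where a gene had several probesets, the one with the highest mean signal was taken, and among the 49 genes this concerned *Gstm3*. The samples were whole livers of mouse fetuses at embryonic day E19.5, just before birth. The fetuses were delivered surgically, and both of their parents carried 1 deleted copy of *Ppara*. The 6 *Ppara*-/- livers lacked PPARα, a nuclear receptor that is activated by fatty acids and switches on genes of lipid catabolism in hepatocytes, and the 6 *Ppara*+/+ livers came from the same kind of mating. The deletion was present in the whole body and not in the liver alone. The labels name the strain SV129 and the study's methods a C57BL/6 background, and no treatment was given to either genotype. According to the methods the livers of each genotype came from fewer litters than livers, and the labels do not tie a liver to a litter, so some livers shared a litter that the p-values do not take into account.

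UGTs join glucuronic acid or another sugar from a UDP-sugar to a hydroxyl, amino or carboxyl group. SULTs transfer a sulfate group from the activated donor PAPS, GSTs join glutathione to electrophilic compounds, and FMOs oxidize nitrogen and sulfur atoms with NADPH and oxygen. UGT and SULT reactions make bile acids, bilirubin and steroids more soluble, and many members of the 4 families are known to change in level around birth. PPARα is known in adult rodents for its role in the response of several UGT and GST genes to fibrate drugs.

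Signals are given as log2 values, in which a difference of 1 is a doubling, and each was measured on an array of its own for each liver. Differences are *Ppara*-/- minus *Ppara*+/+, with the standard error (SE) from limma, a linear model fitted to all 19938 genes at once. Adjusted p-values are Benjamini-Hochberg values over all 19938 genes, and a gene was called when this value was under 0.05. Array signals differ between probes for reasons other than RNA level, so a higher signal of one gene than of another does not show more RNA. *Ppara* itself was at 9.83 ± 0.09 in *Ppara*-/- livers and at 10.84 ± 0.10 in *Ppara*+/+ livers (mean ± SD, n = 6 each), without overlap (difference -1.01, SE 0.06, limma adjusted p = 3.6e-08). The 12 arrays had medians between 6.71 and 6.75, and any 2 of them correlated at 0.9882 to 0.9955. By *Xist* and Y-linked transcripts, the *Ppara*-/- livers were 5 females and 1 male (mouse 2), and the *Ppara*+/+ livers were 3 females and 3 males (mice 2, 3 and 4). Hepatocyte markers were high, with a mean log2 level between 13.27 and 13.28 in *Ppara*-/- livers and between 13.24 and 13.3 in *Ppara*+/+ livers, and none of the 6 measured markers was called. In RNA from whole tissue, fewer cells of a type and less RNA per cell cannot be told apart.

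Of the 49 genes, 11 were called, which is 22.4%, against 7.24% of all genes tested. Of these, 6 genes fell in *Ppara*-/- livers (background 3.82%) and 5 rose (background 3.42%). The genes that fell were *Ugt3a1*, *Ugt3a2*, *Sult2a8*, *Gstt2*, *Gstz1* and *Fmo5*, and the genes that rose were *Gstm1*, *Gstm3*, *Gstp1*, *Gstp3* and *Fmo1*. In 4 of the 49 genes (*Ugt3a1*, *Gstt2*, *Gstz1* and *Fmo5*) the 6 livers of the 2 genotypes did not overlap, a pattern shown by 3.59% of all genes. The median difference over the 49 genes was -0.02, with 27 negative and 22 positive values, and over all genes it was 0.01. The median size of the difference without its sign was 0.12 for the 49 genes and 0.07 for all genes. Genes whose mean signal was under 5.46, the 25th percentile of all genes, numbered 14 of the 49, and *Ugt3a1* was the called gene among them. *Sult2a8* stayed just above this level, at a mean of 5.48, through its *Ppara*+/+ livers, so nothing is read from how the calls fall between dim and brighter genes.

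**Figure D1:**
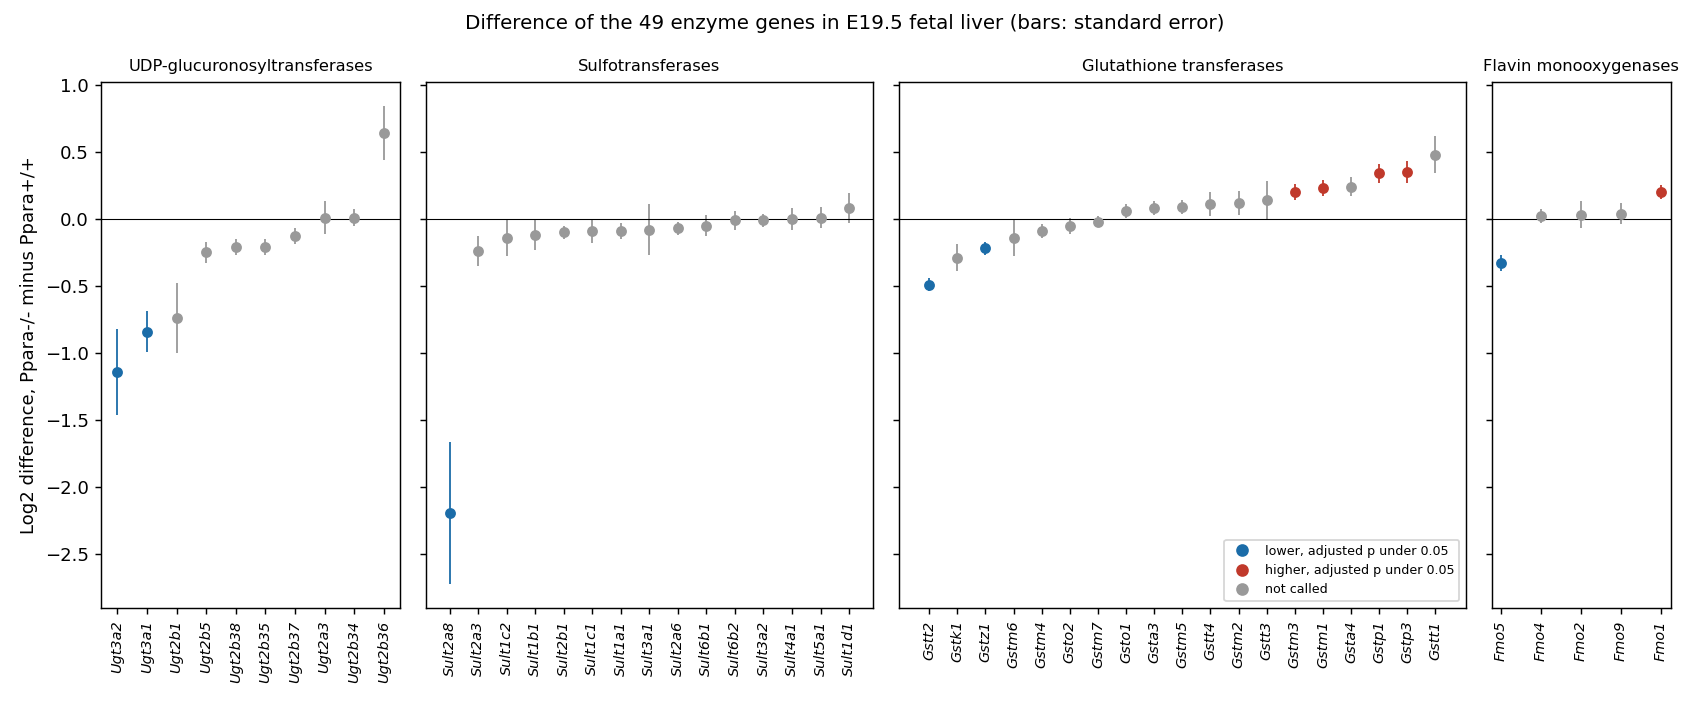
Log2 difference between *Ppara*-/- and *Ppara*+/+ livers (y axis) for each of the 49 genes (x axis), by family, with the standard error as a bar. The differences run from -2.19 for *Sult2a8* to 0.64 for *Ugt2b36*, and called genes are coloured by direction.

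Among the UGTs, 2 of 10 genes fell, none rose and 8 were not called, and the median difference was -0.21. The genes that fell were the neighbours *Ugt3a1* and *Ugt3a2* on chromosome 15. In humans the enzymes of these names use N-acetylglucosamine, glucose or xylose in place of glucuronic acid. *Ugt3a1* was at 5.22, 5.09, 5.05, 4.58, 5.06 and 4.99 in *Ppara*-/- mice 1 to 6, and at 5.86, 6.50, 5.78, 5.77, 5.71 and 5.39 in *Ppara*+/+ mice 1 to 6. Every *Ppara*-/- liver was below every *Ppara*+/+ liver, with *Ppara*-/- mouse 4 the lowest and *Ppara*+/+ mouse 2 the highest. The means were 5.0 ± 0.22 in *Ppara*-/- livers and 5.83 ± 0.36 in *Ppara*+/+ livers (SD, n = 6 each), a difference of -0.84 (SE 0.15, limma adjusted p = 0.0035). Every *Ppara*-/- value and that of *Ppara*+/+ mouse 6 were under 5.46, the 25th percentile of gene means. Array signals may lie near background there, so no fold is given. The *Ugt3a1* call held whichever liver was left out (adjusted p 0.0011 to 0.01).

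*Ugt3a2* was at 8.94, 7.54, 8.38, 7.02, 7.70 and 7.60 in *Ppara*-/- mice 1 to 6, against 9.51, 9.72, 8.94, 9.20, 8.64 and 8.01 in *Ppara*+/+ mice 1 to 6. The groups overlapped through *Ppara*-/- mice 1 and 3 and through *Ppara*+/+ mice 5 and 6. The difference was -1.14 (SE 0.32, limma adjusted p = 0.041), or 2.21-fold lower, larger than that of *Ugt3a1* but with a wider spread among livers. The call was lost without any 1 of *Ppara*-/- mice 2, 4, 5 and 6 or *Ppara*+/+ mice 1 to 4 (adjusted p 0.073 to 0.096), and with sex as a covariate (adjusted p = 0.11).

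Both UGT3 genes were also read by 2 probesets that they share, which were outside the 49 genes and were tested in a fit over all 35556 probesets (3.15% of these called). On one of them the signal was 7.09 ± 0.57 in *Ppara*-/- livers and 8.25 ± 0.54 in *Ppara*+/+ livers (SD, n = 6 each; difference -1.16, SE 0.29, limma adjusted p = 0.048). The other gave a difference of -1.15 and missed the threshold (adjusted p = 0.052). The call of the first was lost without any 1 of *Ppara*-/- mice 2 to 6 or *Ppara*+/+ mice 1 to 5 (adjusted p up to 0.11) and with sex as a covariate (adjusted p = 0.12). As in *Ugt3a2*, these 2 probesets had *Ppara*-/- mice 1 and 3 the highest of their group and *Ppara*+/+ mouse 6 the lowest of its own.

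The 250 bases before the RefSeq start of *Ugt3a1* are shown because it was the UGT whose groups did not overlap, 5′ to 3′ on the plus strand of GRCm38.p6 (chr15:9279579-9279828). Nothing is in capitals, since none of the 3 motifs searched (given with *Sult2a8*) occurs in it.
Ugt3a1: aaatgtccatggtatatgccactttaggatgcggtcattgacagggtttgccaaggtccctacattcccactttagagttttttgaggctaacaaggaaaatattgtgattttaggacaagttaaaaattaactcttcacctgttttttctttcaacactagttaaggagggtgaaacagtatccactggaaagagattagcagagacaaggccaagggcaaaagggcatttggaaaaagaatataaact

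The 7 Ugt2b genes, which encode hepatic enzymes that glucuronidate steroids, bile acids and drugs, lie together with *Ugt2a3* on chromosome 5, and none of the 8 was called. Their differences ran from -0.74 for *Ugt2b1* to 0.64 for *Ugt2b36*, and 5 of the 7 Ugt2b values were negative. In chromosomal order the differences were 0.01 for *Ugt2b34*, -0.74 for *Ugt2b1*, -0.21 for *Ugt2b35*, 0.64 for *Ugt2b36*, -0.25 for *Ugt2b5*, -0.13 for *Ugt2b37*, 0.01 for *Ugt2a3* and -0.21 for *Ugt2b38*. The UGT with the brightest probeset, *Ugt2b34*, was at 11.27 ± 0.09 in *Ppara*-/- livers and 11.26 ± 0.11 in *Ppara*+/+ livers (SD, n = 6 each; SE of the difference 0.06, limma adjusted p = 0.95). The uncalled UGT nearest to the threshold was *Ugt2b35*, with 7.68 to 7.86 in *Ppara*-/- livers and 7.80 to 8.22 in *Ppara*+/+ livers (limma adjusted p = 0.052).

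*Ugt2b36* was the member with the largest positive difference and was not called (SE 0.20, limma adjusted p = 0.065). Its signal was 8.56 in *Ppara*-/- mouse 1 and 9.30, 9.04, 9.32, 9.32 and 9.37 in *Ppara*-/- mice 2 to 6, against 8.17, 8.30, 8.22 and 8.15 in *Ppara*+/+ mice 1 to 4 and 9.08 and 9.17 in *Ppara*+/+ mice 5 and 6. Each genotype thus held livers at or below 8.56 and livers at or above 9.04, and this followed the animal numbers in the labels. *Ppara*-/- mouse 1 and *Ppara*+/+ mice 1 to 4 bear the lowest numbers, *Ppara*-/- mice 2 to 6 come next, and *Ppara*+/+ mice 5 and 6 bear the highest. The difference of *Ugt2b36* was 0.72 among the 6 lowest numbers and 0.14 among the 6 highest. With animal number as a covariate, an alternative added after the values were seen, it was 0.57 and was called (limma adjusted p = 9.4e-04). *Ugt2b1* had the opposite sign, with 7.0, 6.53, 6.67, 6.00, 6.37 and 6.26 in *Ppara*-/- mice 1 to 6 and 7.30, 7.86, 7.76, 7.21, 7.14 and 6.01 in *Ppara*+/+ mice 1 to 6 (SE 0.26, limma adjusted p = 0.096). Without *Ppara*+/+ mouse 6, whose value lay within the *Ppara*-/- range, or without *Ppara*-/- mouse 1 it was called (adjusted p 0.003 to 0.048).

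For 4 further Ugt2b genes the call depended on single livers. The count over all genes moved too, from 1443 in the main fit to 2521 without *Ppara*-/- mouse 1 and 1978 without *Ppara*+/+ mouse 6. It was 1262 without *Ppara*+/+ mouse 5, 1261 without *Ppara*-/- mouse 3 and 880 without *Ppara*-/- mouse 6. *Ugt2b36* passed the threshold when *Ppara*-/- mouse 1, *Ppara*+/+ mouse 5 or *Ppara*+/+ mouse 6 was left out (adjusted p 0.015 to 0.032), and *Ugt2b35* without *Ppara*+/+ mouse 5 (adjusted p = 0.025). *Ugt2b38* passed when *Ppara*-/- mouse 6 or *Ppara*+/+ mouse 6 was left out (adjusted p 0.02 to 0.03), and *Ugt2b5* without *Ppara*-/- mouse 3 or *Ppara*+/+ mouse 6 (adjusted p 0.015 to 0.029). The Ugt1a genes, whose products include the bilirubin-conjugating enzyme UGT1A1, had no probeset of their own. The probeset that 8 of them share was at 10.05 ± 0.11 in *Ppara*-/- livers and 10.05 ± 0.11 in *Ppara*+/+ livers (SD, n = 6 each; difference 0.00, SE 0.06), so single Ugt1a genes cannot be followed here. The probeset shared by *Ugt2a1* and *Ugt2a2* had a difference of -0.04 (limma adjusted p = 0.72).

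**Figure D2:**
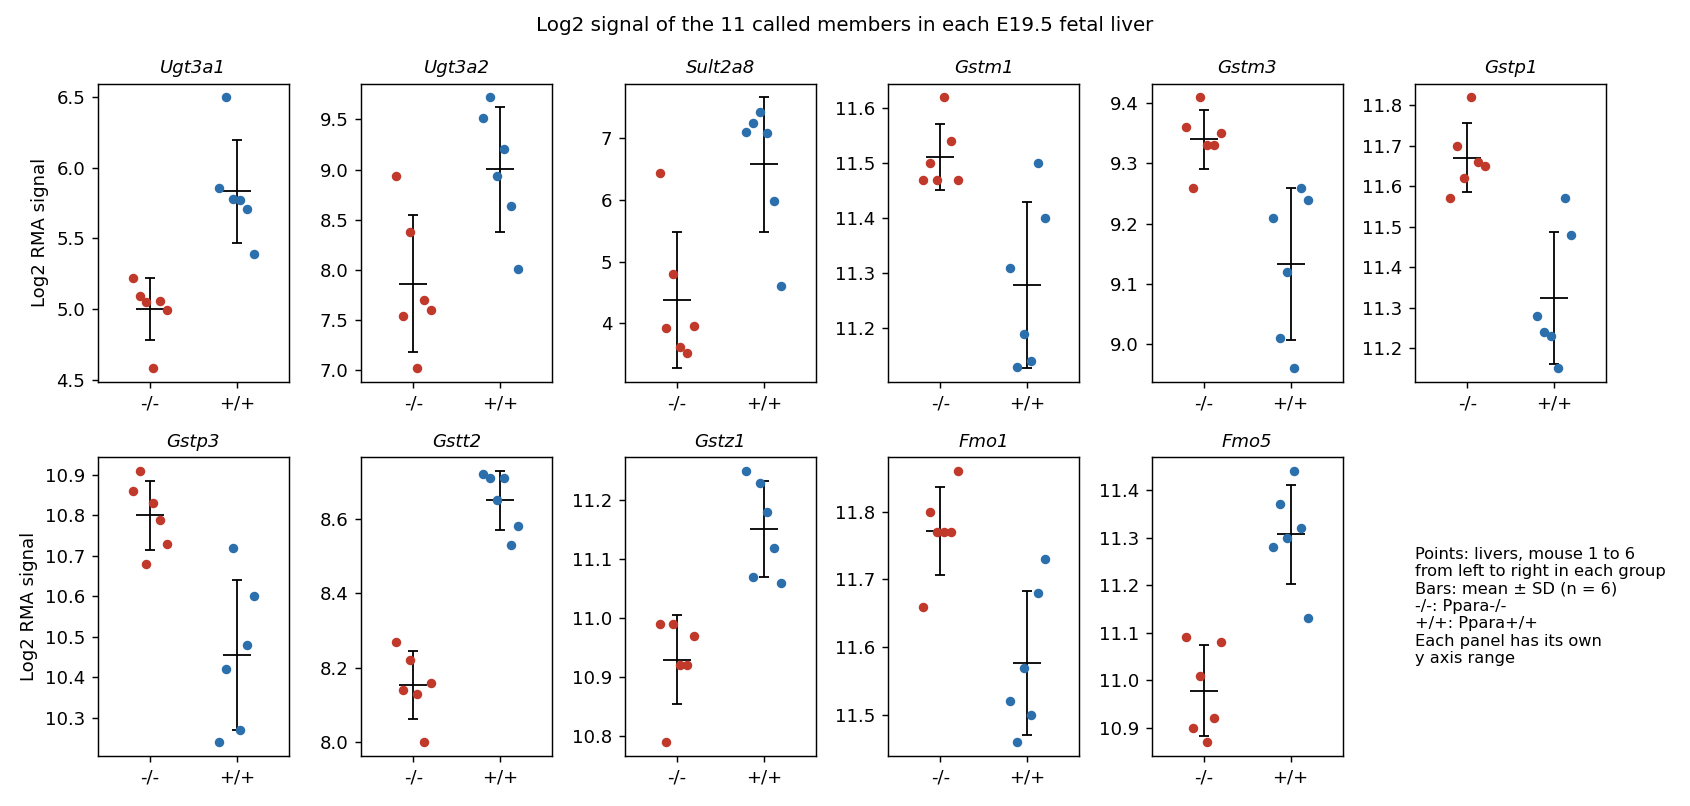
Log2 signal of the 11 called genes in each of 6 *Ppara*-/- and 6 *Ppara*+/+ livers, with mean and SD bars and a separate y axis for each gene. The groups are apart in *Ugt3a1*, *Gstt2*, *Gstz1* and *Fmo5*, and in the other 7 genes at least 1 liver lies within the range of the other genotype.

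Among the SULTs, 1 of 15 genes fell, none rose and 14 were not called, a share of 6.67% that is close to the 7.24% of all genes. The gene that fell was *Sult2a8*, which encodes a mouse liver sulfotransferase of bile acids. Its signal was 6.44, 3.93, 4.80, 3.62, 3.52 and 3.96 in *Ppara*-/- mice 1 to 6, against 7.10, 7.24, 7.42, 7.08, 5.98 and 4.61 in *Ppara*+/+ mice 1 to 6. *Ppara*-/- mouse 1 was the highest of its group and lay above the 2 lowest *Ppara*+/+ livers, and *Ppara*+/+ mouse 6 lay below 2 *Ppara*-/- livers. The means were 4.38 ± 1.11 in *Ppara*-/- livers and 6.57 ± 1.09 in *Ppara*+/+ livers (SD, n = 6 each), a difference of -2.19 (SE 0.53, limma adjusted p = 0.022). In *Ppara*-/- livers 5 of the 6 values were under 5.46, the 25th percentile of gene means, where array signals may lie near background, so no fold is given. This was the largest difference among the 49 genes and also the one with the largest spread within a genotype. The call was lost without any 1 of *Ppara*-/- mice 2, 4, 5 and 6 or *Ppara*+/+ mice 1 to 4 (adjusted p 0.053 to 0.059) and with sex as a covariate (difference -1.96, adjusted p = 0.067).

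Of the called genes searched, *Sult2a8* alone had a nuclear receptor half-site, in the window of 1 of its 2 RefSeq starts. The window of its first start had none of the motifs searched. The 250 bases before its second RefSeq start are printed 5′ to 3′, on the minus strand of GRCm38.p6 (chr7:14438552-14438801), with the 2 copies of AGGTCA in capitals, at positions -164 to -159 and -90 to -85 from the start.
Sult2a8: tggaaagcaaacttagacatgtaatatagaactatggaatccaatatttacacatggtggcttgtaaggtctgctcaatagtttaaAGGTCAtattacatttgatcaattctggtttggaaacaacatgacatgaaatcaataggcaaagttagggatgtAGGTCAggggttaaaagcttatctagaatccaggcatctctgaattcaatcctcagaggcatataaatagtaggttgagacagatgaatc

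AGGTCA is the half-site that many nuclear receptors bind, and it was searched on both strands in the 250 bases before 32851 mouse starts in RefSeq, 14.0% of which hold it. Of the 49 genes, 44 had an entry there, with 56 starts, and 10 of these genes had the half-site in at least 1 window. The other 9 genes were *Ugt2b35*, *Ugt2b36*, *Ugt2b37*, *Ugt2b38*, *Ugt2b5*, *Sult1b1*, *Gstk1*, *Fmo2* and *Fmo4*, none of them called. The full direct repeat, AGGTCA followed by any 1 base and a second AGGTCA, which is the idealized element for PPARα with its partner RXR and overlaps the half-site search, was in 0.0335% of all windows and in none of the members' windows. The antioxidant response element core TGACNNNGC was in 10.2% of all windows and, among the members, in those of *Gsta3*, *Gstm5* and *Gstm7*, which were not called. A match is a run of letters and not a shown binding site, and its absence says only that these letters do not occur in this window. *Ugt3a2*, *Gstt2* and *Fmo1* were not searched.

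The other 14 SULTs had differences between -0.24 and 0.08, with limma adjusted p-values of 0.24 or more. The 5 Sult1 genes ran from -0.14 to 0.08, and the 6 genes of the Sult3 to Sult6 subfamilies from -0.08 to 0.01. *Sult1d1*, a sulfotransferase of catecholamines and other phenols, had the brightest probeset of the family and was at 10.43 ± 0.12 in *Ppara*-/- livers and 10.35 ± 0.28 in *Ppara*+/+ livers (SD, n = 6 each; SE of the difference 0.11, limma adjusted p = 0.76). *Sult1a1*, the main phenol sulfotransferase, was between 10.16 and 10.33 in *Ppara*-/- livers and between 10.03 and 10.43 in *Ppara*+/+ livers (difference -0.09, SE 0.06). The 4 Sult2 genes all had negative differences, and next to *Sult2a8* the uncalled gene with the smallest p-value was *Sult2a3*, at 3.05 to 3.32 in *Ppara*-/- livers and 3.08 to 3.88 in *Ppara*+/+ livers (difference -0.24, limma adjusted p = 0.24). Of the 15 SULTs, 9 had a mean signal under 5.46 and are hard to follow on these arrays. Estrogen sulfotransferase *Sult1e1*, left out by the rule, was at 2.91 ± 0.04 in *Ppara*-/- livers and 2.94 ± 0.11 in *Ppara*+/+ livers (SD, n = 6 each; limma adjusted p = 0.77).

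*Sult2a1*, which sulfates bile acids and steroids such as dehydroepiandrosterone, was read only on probesets shared with close copies. The probeset of *Sult2a1* and *Sult2a2* was at 3.69, 3.67, 3.60, 3.29, 3.46 and 3.48 in *Ppara*-/- mice 1 to 6, against 4.81, 5.39, 4.04, 5.37, 4.13 and 3.72 in *Ppara*+/+ mice 1 to 6. The groups did not overlap, but the highest *Ppara*-/- liver (3.69) and the lowest *Ppara*+/+ liver (3.72) were close, and the *Ppara*+/+ livers varied far more. The difference of -1.04 (SE 0.27) missed the threshold in the fit over all probesets (limma adjusted p = 0.055). The probeset shared by *Sult2a1*, *Sult2a2*, *Sult2a4* and *Sult2a5* had a difference of -0.45 (SE 0.12, limma adjusted p = 0.077). Which copy gave the signal cannot be told apart on either probeset.

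**Figure D3:**
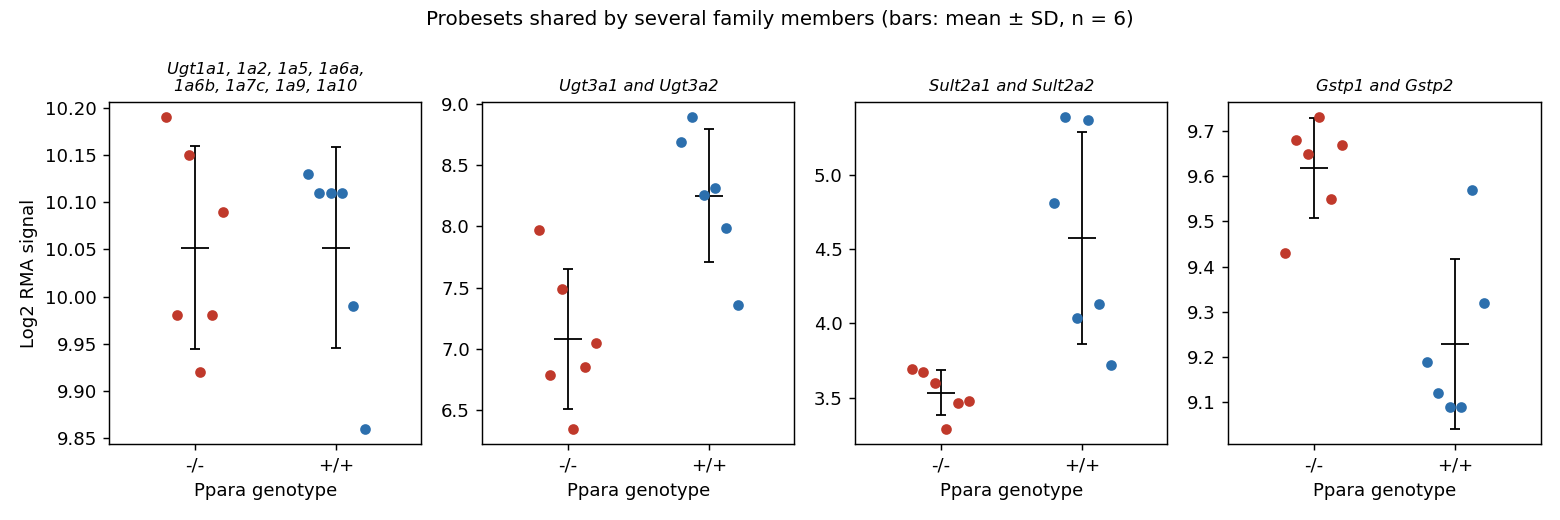
Log2 signal (y axis) of 4 probesets that several family members share, in *Ppara*-/- and *Ppara*+/+ livers, with the mean and SD. The Ugt1a probeset has the same mean of 10.05 in both genotypes, the Ugt3a and Sult2a probesets have lower means in *Ppara*-/- livers and the Gstp probeset a higher one.

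Among the 19 GSTs, 2 genes fell, 4 rose and 13 were not called, and the median difference was 0.09. The share called was 31.6%, against 7.24% of all genes. The 4 theta-class genes lie in a row on chromosome 10, in the order *Gstt3*, *Gstt1*, *Gstt4*, *Gstt2*. *Gstt2*, which encodes a theta-class transferase, was at 8.27, 8.14, 8.22, 8.13, 8.00 and 8.16 in *Ppara*-/- mice 1 to 6, against 8.72, 8.71, 8.65, 8.71, 8.53 and 8.58 in *Ppara*+/+ mice 1 to 6. The groups did not overlap, and the lowest *Ppara*+/+ liver was above the highest *Ppara*-/- liver. The difference was -0.49 (SE 0.05, limma adjusted p = 4.7e-05), or 1.41-fold lower, the smallest p-value among the 49 genes. It was -0.49 among the 6 lowest animal numbers and -0.42 among the 6 highest, and the gene stayed called when any 1 liver was left out.

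*Gstt1*, a theta-class enzyme that dehalogenates small halogenated compounds and lies in the same row of genes, had a difference of the opposite sign and narrowly missed the threshold (0.48, SE 0.14, limma adjusted p = 0.051). Its signal was 11.32 in *Ppara*-/- mouse 1 and 11.80, 11.79, 11.99, 11.87 and 11.85 in *Ppara*-/- mice 2 to 6, against 11.10, 10.94, 11.23 and 11.10 in *Ppara*+/+ mice 1 to 4 and 11.60 and 11.76 in *Ppara*+/+ mice 5 and 6. The livers split as for *Ugt2b36*, by animal number as well as by genotype. The difference was 0.47 among the 6 lowest numbers and 0.19 among the 6 highest. With animal number as a covariate it was 0.43 and was called (limma adjusted p = 6.9e-04). The threshold was passed by *Gstt1* when *Ppara*-/- mouse 1, *Ppara*+/+ mouse 5 or *Ppara*+/+ mouse 6 was left out (adjusted p 0.0095 to 0.037). *Gstt3* and *Gstt4* had differences of 0.14 and 0.11, with SEs of 0.14 and 0.09, and were not called.

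**Figure D4:**
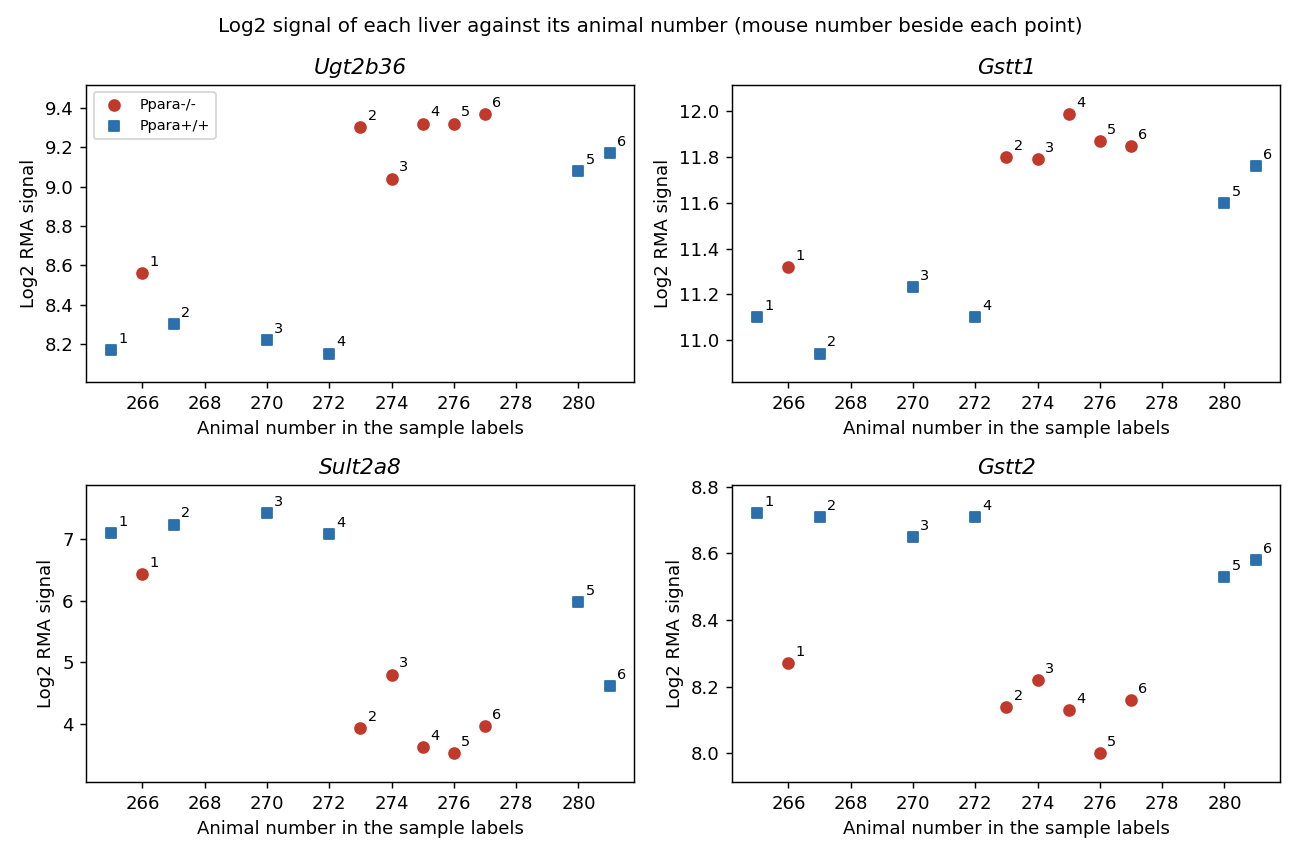
Log2 signal (y axis) against the animal number of the labels (x axis) for *Ugt2b36*, *Gstt1*, *Sult2a8* and *Gstt2*, with *Ppara*-/- livers as circles and *Ppara*+/+ livers as squares. *Ppara*-/- mouse 1, the second lowest number, lies towards the *Ppara*+/+ livers with low numbers in *Ugt2b36*, *Gstt1* and *Sult2a8*, while *Gstt2* is lower in *Ppara*-/- livers across all numbers.

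The 2 pi-class genes both rose. GSTP enzymes detoxify electrophiles and are abundant in mouse liver. *Gstp1* was at 11.57, 11.70, 11.62, 11.82, 11.66 and 11.65 in *Ppara*-/- mice 1 to 6, against 11.28, 11.24, 11.23, 11.15, 11.57 and 11.48 in *Ppara*+/+ mice 1 to 6. Of the *Ppara*-/- livers, 5 were above every *Ppara*+/+ liver, and mouse 1 equalled *Ppara*+/+ mouse 5 at this precision. The difference was 0.34 (SE 0.07, limma adjusted p = 0.0091), or 1.27-fold higher. *Gstp3* gave 10.68 to 10.91 in *Ppara*-/- livers and 10.24 to 10.72 in *Ppara*+/+ livers (difference 0.35, SE 0.08, limma adjusted p = 0.014). Its groups overlapped through *Ppara*+/+ mouse 3 alone on the *Ppara*+/+ side. Both calls held whichever liver was left out. *Gstp2* was read only together with *Gstp1*, on 2 probesets that were both higher in *Ppara*-/- livers (differences 0.39 and 0.37, limma adjusted p = 0.027 and 0.038 over all probesets). Each of these 2 lost its call without any 1 of *Ppara*-/- mice 2 to 6 or *Ppara*+/+ mice 1 to 4 (adjusted p up to 0.069 and 0.093), and signal from close copies cannot be told apart there.

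The promoter window of *Gstp1* is shown as that of the gene that rose with the smallest p-value, 5′ to 3′ on the minus strand of GRCm38.p6 (chr19:4037913-4038162), with no searched motif in it.
Gstp1: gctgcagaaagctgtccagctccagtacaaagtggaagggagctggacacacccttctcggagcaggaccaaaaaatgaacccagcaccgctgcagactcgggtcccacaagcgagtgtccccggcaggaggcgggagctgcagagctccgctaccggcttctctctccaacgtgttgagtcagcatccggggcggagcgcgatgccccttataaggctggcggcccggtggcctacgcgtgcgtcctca

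The 7 mu-class genes lie together on chromosome 3, and 2 of them rose. *Gstm1*, a major mu-class enzyme of liver, was at 11.47, 11.50, 11.47, 11.62, 11.54 and 11.47 in *Ppara*-/- mice 1 to 6, against 11.31, 11.13, 11.19, 11.14, 11.50 and 11.40 in *Ppara*+/+ mice 1 to 6. *Ppara*+/+ mouse 5 reached the *Ppara*-/- range, and the other 5 livers of that genotype lay below it. The difference was 0.23 (SE 0.06, limma adjusted p = 0.042), or 1.17-fold higher. *Gstm3* had a difference of 0.20 (SE 0.06, limma adjusted p = 0.043), with 9.26 to 9.41 in *Ppara*-/- livers and 8.96 to 9.26 in *Ppara*+/+ livers. Its other probeset had 8.26 to 8.39 in *Ppara*-/- livers and 7.37 to 8.28 in *Ppara*+/+ livers, a difference of 0.30 (SE 0.13). In the fit over all probesets neither was called (limma adjusted p = 0.079 for the probeset taken and 0.26 for the other), and the gene lost its call when its probesets were averaged (adjusted p = 0.089). Mu-class genes are close copies, so that a probeset may read more than its own gene. Where in the genome the probeset taken for *Gstm3* lies is not stated in the sources used, and whether it reads the gene on chromosome 3 or another copy was not tested. Both calls were lost without any 1 of *Ppara*-/- mice 2 to 6 or *Ppara*+/+ mice 1 to 4 (adjusted p 0.055 to 0.099 for *Gstm1* and 0.055 to 0.1 for *Gstm3*), and with sex as a covariate (adjusted p = 0.11 and 0.099). The other 5 mu-class genes had differences from -0.14 for *Gstm6* to 0.12 for *Gstm2* and were not called.

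*Gstz1*, the zeta-class enzyme that isomerizes maleylacetoacetate in tyrosine breakdown, fell. Its signal was 10.99, 10.79, 10.99, 10.92, 10.92 and 10.97 in *Ppara*-/- mice 1 to 6, against 11.25, 11.07, 11.23, 11.18, 11.12 and 11.06 in *Ppara*+/+ mice 1 to 6. The groups did not overlap, although the highest *Ppara*-/- livers and the lowest *Ppara*+/+ livers were close. The difference was -0.22 (SE 0.05, limma adjusted p = 0.016), or 1.17-fold lower, and the gene stayed called when any 1 liver was left out (adjusted p 0.01 to 0.04).

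Of the alpha class, *Gsta3* had the brightest probeset of all GSTs and was at 11.94 to 12.07 in *Ppara*-/- livers and 11.78 to 12.05 in *Ppara*+/+ livers (difference 0.08, SE 0.05, limma adjusted p = 0.43). *Gsta4*, which conjugates the lipid peroxidation product 4-hydroxynonenal, was at 9.22 to 9.39 in *Ppara*-/- livers and 8.84 to 9.31 in *Ppara*+/+ livers (difference 0.24, SE 0.07, limma adjusted p = 0.053). It was called without *Ppara*+/+ mouse 5 or mouse 6 (adjusted p 0.016 to 0.038). The 4 probesets shared by *Gsta1*, *Gsta2* and 2 other gene models had differences from -0.03 to 0.00. *Gstk1*, the kappa-class enzyme of mitochondria and peroxisomes, was at 10.93, 10.37, 10.70, 10.47, 10.45 and 10.53 in *Ppara*-/- mice 1 to 6, against 10.89, 11.03, 10.92, 11.01, 10.84 and 10.51 in *Ppara*+/+ mice 1 to 6. *Ppara*-/- mouse 1 lay within the *Ppara*+/+ range and *Ppara*+/+ mouse 6 within the *Ppara*-/- range, and the difference of -0.29 (SE 0.10) was not called (limma adjusted p = 0.097) unless 1 of these 2 livers was left out (adjusted p 0.015 to 0.02). The omega-class genes *Gsto1* and *Gsto2* had differences of 0.06 and -0.05 and were not called.

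Among the 5 FMOs, 1 gene fell, 1 rose and 3 were not called, a share of 40.0% called in a family of 5, against 7.24% of all genes. *Fmo5*, which encodes an FMO known for Baeyer-Villiger oxidation of ketones, was at 11.09, 10.90, 11.01, 10.87, 10.92 and 11.08 in *Ppara*-/- mice 1 to 6, against 11.28, 11.37, 11.30, 11.44, 11.32 and 11.13 in *Ppara*+/+ mice 1 to 6. The groups did not overlap, with *Ppara*+/+ mouse 6 closest to the *Ppara*-/- livers. The difference was -0.33 (SE 0.06, limma adjusted p = 0.0034), or 1.25-fold lower, and it was -0.35 among the 6 lowest animal numbers and -0.26 among the 6 highest. *Fmo1*, which oxygenates amines and sulfur-containing drugs, rose. It had 11.66, 11.80, 11.77, 11.77, 11.77 and 11.86 in *Ppara*-/- mice 1 to 6, against 11.52, 11.46, 11.57, 11.50, 11.68 and 11.73 in *Ppara*+/+ mice 1 to 6 (difference 0.20, SE 0.05, limma adjusted p = 0.04). *Ppara*-/- mouse 1 was below 2 *Ppara*+/+ livers, and the call was lost without any 1 of *Ppara*-/- mice 2 to 6 or *Ppara*+/+ mice 1 to 4 (adjusted p 0.062 to 0.096) and with sex as a covariate (adjusted p = 0.12). *Fmo4*, *Fmo2* and *Fmo9*, on chromosome 1 with *Fmo1*, had differences of 0.02, 0.03 and 0.04 (limma adjusted p of 0.84 or more).

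The promoter window of *Fmo5*, the FMO that fell without overlap of the groups, is printed 5′ to 3′ on the plus strand of GRCm38.p6 (chr3:97628769-97629018), with no searched motif in it.
Fmo5: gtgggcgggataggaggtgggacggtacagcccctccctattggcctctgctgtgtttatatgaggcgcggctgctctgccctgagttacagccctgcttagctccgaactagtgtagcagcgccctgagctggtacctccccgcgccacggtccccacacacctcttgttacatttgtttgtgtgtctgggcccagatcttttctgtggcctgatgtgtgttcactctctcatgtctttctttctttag

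Single livers stood between the genotypes in several of these genes. Of the 11 called genes, *Ppara*-/- mouse 1 was the *Ppara*-/- liver nearest to the *Ppara*+/+ mean in 7, and *Ppara*+/+ mouse 6 the *Ppara*+/+ liver nearest to the *Ppara*-/- mean in 6. Among the 6 lowest animal numbers (2 *Ppara*-/- and 4 *Ppara*+/+ livers) and the 6 highest (4 *Ppara*-/- and 2 *Ppara*+/+ livers), all 11 differences kept their sign, and all 11 were smaller in size among the highest numbers. The 11 genes were called on these same livers, and in *Ugt3a1*, *Gstt2*, *Gstz1* and *Fmo5*, without overlap, no split could change the sign. The kept signs are thus no separate support, and neither count was made over all genes. With animal number as a covariate, an alternative added after the values were seen, 17 of the 49 genes were called, 9 lower and 8 higher, including all 11. The genes gained in this fit were *Gsta4*, *Gstk1*, *Gstt1*, *Ugt2b1*, *Ugt2b35* and *Ugt2b36*. Over all genes this fit called 1836, against 1443 in the main fit. With sex as a covariate 6 of the 49 genes were called, 4 lower and 2 higher, and 850 of all genes. These 6 were *Ugt3a1*, *Gstp1*, *Gstp3*, *Gstt2*, *Gstz1* and *Fmo5*, the same genes that were called whichever liver was left out. Sex was not balanced between the genotypes, and the other 5 calls were lost with it in the fit (adjusted p 0.067 to 0.12). What the animal numbers stand for, such as litter or day, is not stated, and their part in the differences was not tested beyond these fits.

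Of the markers of other cells, 7 erythroid markers were measured and none was called, with a mean log2 level of 11.39 to 11.55 in *Ppara*-/- livers and 11.27 to 11.52 in *Ppara*+/+ livers. The hepatoblast markers were at 12.42 to 12.58 in *Ppara*-/- livers and 12.24 to 12.5 in *Ppara*+/+ livers, and 1 of 3 (*Dlk1*) was higher. Of 8 macrophage markers, 2 (*Csf1r* and *Cd5l*) were higher, with mean log2 levels of 8.9 to 9.07 in *Ppara*-/- livers and 8.86 to 9.0 in *Ppara*+/+ livers. No marker of cholangiocytes, granulocytes or endothelial cells was called, and of 6 stellate cell markers 1 was lower and 1 higher. The markers of kidney and gut, tissues next to the liver, were at 5.64 to 5.79 in *Ppara*-/- livers and 5.62 to 5.83 in *Ppara*+/+ livers, with 1 of 5 lower and 1 higher. With the erythroid level as a covariate 7 of the 49 genes were called, 5 lower and 2 higher, and 1016 of all genes, against 1443 in the main fit. The part of hepatoblasts and macrophages in the differences was not tested.

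The genes that supply or accompany these enzymes were followed in lists of their own, chosen with earlier results of these data known. Of all genes tested, 3.82% fell and 3.42% rose. Of 6 genes of glucuronic acid metabolism and of UDP-sugar synthesis or transport, 2 rose and 1 fell. *Ugp2*, which makes UDP-glucose, was at 11.23 ± 0.31 in *Ppara*-/- livers and 10.46 ± 0.22 in *Ppara*+/+ livers (SD, n = 6 each; difference 0.77, SE 0.13, limma adjusted p = 0.0032). *Ugdh*, which oxidizes UDP-glucose to UDP-glucuronic acid, was at 10.07 ± 0.38 in *Ppara*-/- livers and 9.33 ± 0.25 in *Ppara*+/+ livers (SD, n = 6 each; difference 0.73, SE 0.16, limma adjusted p = 0.012). In both genes *Ppara*-/- mouse 1 was the lowest of its group and lay within the *Ppara*+/+ range, and both genes stayed called when any 1 liver was left out. *Slc35a3*, a UDP-sugar transporter of the Golgi, had a difference of -0.22 (adjusted p = 0.023), which was lost without any 1 of *Ppara*-/- mice 2, 4 and 5 or *Ppara*+/+ mice 2, 3 and 4 (adjusted p 0.052 to 0.063).

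Of 8 measured genes of sulfate activation and supply, 2 fell and none rose. *Suox*, sulfite oxidase, which makes sulfate from sulfite, was at 8.12, 7.58, 7.86, 7.41, 7.60 and 7.79 in *Ppara*-/- mice 1 to 6, against 8.94, 9.08, 8.75, 8.88, 8.44 and 8.32 in *Ppara*+/+ mice 1 to 6. The groups did not overlap (difference -1.01, SE 0.14, limma adjusted p = 4.4e-04). *Papss2*, which makes PAPS, the sulfate donor of all SULTs, was at 10.04 ± 0.12 in *Ppara*-/- livers and 10.46 ± 0.19 in *Ppara*+/+ livers (SD, n = 6 each; difference -0.42, SE 0.08, limma adjusted p = 0.0071). Of 11 measured genes of glutathione synthesis and recycling, 1 rose and none fell. This was *Cbs*, cystathionine beta-synthase, the entry to cysteine synthesis from homocysteine (difference 0.23, SE 0.04, limma adjusted p = 0.0061), and its groups did not overlap.

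The list of microsomal glutathione transferases held 6 genes of a protein family unrelated to the cytosolic GSTs. Not all of them encode transferases, and 4 rose and 1 fell. *Mgst1*, the abundant liver enzyme of this family, was at 11.44 ± 0.08 in *Ppara*-/- livers and 11.80 ± 0.08 in *Ppara*+/+ livers (SD, n = 6 each; difference -0.36, SE 0.05, limma adjusted p = 6.9e-04). *Mgst2* was at 8.67 ± 0.08 in *Ppara*-/- livers and 8.25 ± 0.17 in *Ppara*+/+ livers (SD, n = 6 each; difference 0.42, SE 0.07, limma adjusted p = 0.0028). Neither gene's groups overlapped. *Ptges*, which makes prostaglandin E2, rose by 0.71 (SE 0.15, limma adjusted p = 0.0097), with *Ppara*-/- mouse 1 within the *Ppara*+/+ range. The other 2 that rose were *Mgst3*, called at an adjusted p of 0.039, and *Alox5ap*, the 5-lipoxygenase activating protein, called at 0.044. The *Mgst3* call was lost without any 1 of *Ppara*-/- mice 2, 3, 5 and 6 or *Ppara*+/+ mice 1 to 4 (adjusted p 0.067 to 0.097). The *Alox5ap* call was lost without any 1 of *Ppara*-/- mice 2 to 6 or *Ppara*+/+ mice 1 to 4 and 6 (adjusted p 0.052 to 0.1).

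Of 13 measured genes of other conjugation reactions, 5 fell and none rose, with a median difference of -0.25. *Acsm3* and *Acsm5*, which activate medium-chain and aromatic acids as coenzyme A thioesters, fell by 0.78 and by 0.93 (SE 0.07 and 0.17, limma adjusted p = 5.1e-06 and 0.0036), and the groups of *Acsm3* did not overlap. *Tpmt*, thiopurine methyltransferase, fell by 0.29 (SE 0.06, limma adjusted p = 0.009). The other 2 were *Glyat* and *As3mt*, called at adjusted p of 0.035 and 0.049 and both lost without any 1 of *Ppara*-/- mice 2, 4, 5 and 6 or *Ppara*+/+ mice 1 to 4 (*As3mt* also without *Ppara*+/+ mouse 5; adjusted p 0.065 to 0.086 for *Glyat* and 0.056 to 0.12 for *As3mt*). Of 13 measured targets of NRF2, the regulator of the antioxidant response, 2 fell and none rose. *Ephx1*, microsomal epoxide hydrolase, was at 9.46 ± 0.21 in *Ppara*-/- livers and 10.03 ± 0.25 in *Ppara*+/+ livers (SD, n = 6 each; difference -0.57, SE 0.12, limma adjusted p = 0.0088). *Abcc2*, which exports conjugates into bile, had a difference of -0.19 (adjusted p = 0.035), which was lost without any 1 of *Ppara*-/- mice 2 to 6 or *Ppara*+/+ mice 1 to 4 (adjusted p 0.053 to 0.09). The glutathione synthesis genes *Gclc* and *Gclm*, counted in the list of NRF2 targets too, had differences of 0.06 and 0.02 and were not called.

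Of 15 measured regulators of these enzymes, 3 fell, *Ppara* included, and 1 rose. *Ahr*, the dioxin receptor, was at 10.32, 10.84, 10.82, 10.78, 10.63 and 10.62 in *Ppara*-/- mice 1 to 6, against 10.17, 10.10, 10.23, 10.16, 10.17 and 10.12 in *Ppara*+/+ mice 1 to 6. Every *Ppara*-/- liver was above every *Ppara*+/+ liver (difference 0.51, SE 0.08, limma adjusted p = 0.001). *Esrrg*, an orphan receptor, fell by 0.34 (SE 0.06, limma adjusted p = 0.0041), and *Nr1h4*, the bile acid receptor FXR, fell by 0.31 (SE 0.06, limma adjusted p = 0.0082), both without overlap of the groups. The receptors of drugs and other foreign compounds, *Nr1i2* (PXR) and *Nr1i3* (CAR), are among the 15 and were not called. The choice to describe them was made after their values were seen. *Nr1i2* had a difference of -0.23 (limma adjusted p = 0.051) and *Nr1i3* of -0.68 (limma adjusted p = 0.061). *Nr1i3* was at 9.87, 9.25, 9.21, 8.96, 8.66 and 9.01 in *Ppara*-/- mice 1 to 6, against 10.09, 10.14, 10.02, 10.14, 9.59 and 9.05 in *Ppara*+/+ mice 1 to 6. As in *Sult2a8*, *Ppara*-/- mouse 1 was the highest of its group and *Ppara*+/+ mouse 6 the lowest of its own. *Nr1i3* was called without either of these livers (adjusted p 0.0088 to 0.0096), and *Nr1i2* without *Ppara*-/- mouse 1, *Ppara*-/- mouse 3 or *Ppara*+/+ mouse 6 (adjusted p 0.019 to 0.049).

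**Figure D5:**
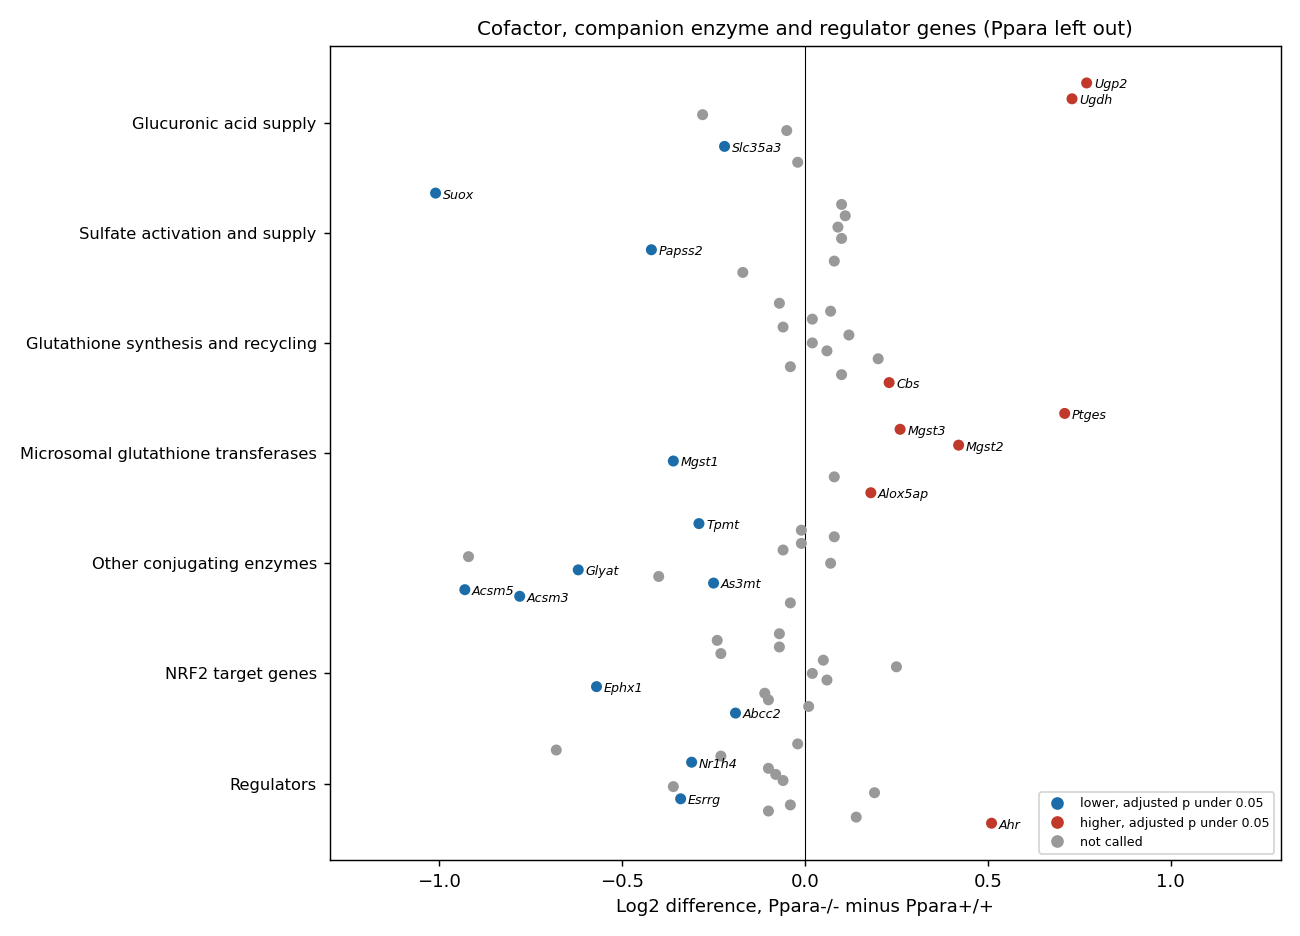
Log2 difference between *Ppara*-/- and *Ppara*+/+ livers (x axis) of each measured gene in 7 lists (y axis; *Ppara* is not drawn), with called genes coloured by direction and named. Called genes in the list of microsomal glutathione transferases lie on both sides of 0, and those of the other conjugating enzymes lie below it.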

How the data were processed

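Total RNA of 12 whole fetal livers (6 *Ppara*-/- and 6 *Ppara*+/+, RNA integrity above 8) was hybridized to Affymetrix Mouse Gene ST arrays, 1 liver per array. The deposited values are on a log2 scale and came from RMA, in which the authors subtracted background, brought the arrays to a common distribution and combined the probes of each probeset. They are thus relative to the other arrays. For RMA no version, and for the array no genome build, is stated in the sources used. No scanner files were used, so the precision is set by the 6 livers per genotype and not by a known depth.

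Of 35556 probesets, 21789 carried 1 gene symbol, 1621 several and 12146 none in the platform's table. Probesets with 1 symbol gave 19938 genes (highest mean per gene), and those with several were tested only in a separate fit over all probesets. Genotypes were compared with limma (lmFit and eBayes of version 3.58.1 in R 4.3.3) and Benjamini-Hochberg adjustment at 0.05. The fit was tried on simulated data in which livers varied independently. Such data hold no shared litters, sex or animal numbers, so they cannot check the p-values for these. The genes and lists were chosen with earlier results of these data known. Named were all called members, *Ugt3a1* and *Sult2a1*, and members whose call changed when 1 liver was left out. Each family's member with the highest signal, with the largest difference and with the smallest p among the uncalled was named too. Up to 3 genes per list were named by p, and further called genes to complete the count. The uncalled *Gclc*, *Gclm*, *Nr1i2* and *Nr1i3* were named outside this rule. *Srxn1*, *Bpnt1* and *Cth*, uncalled and next by p in their lists after the called genes, were not described. Promoters came from RefSeq (GRCm38.p6). Alternatives left out each liver in turn, added sex, erythroid level or animal number to the fit, changed the filter, probeset rule, normalization, weights, variance model or test.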

Additional observations from a re-analysis of the deposited data

Results flagged for a closer look

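Of 98 sets of 6 livers (49 genes in 2 genotypes), 7 held a liver far from the other 5 by Dixon's criterion, which by chance marks about 1 in 20 sets. Among *Ppara*-/- livers, *Gstt1* was at 11.32 in mouse 1 and at 11.79 to 11.99 in the others. *Gstz1* was at 10.79 in mouse 2 and at 10.92 to 10.99 in the others, and *Ugt3a1* was at 4.58 in mouse 4 and at 4.99 to 5.22 in the others. The dim gene *Sult2a3* was at 3.32 in mouse 1 and at 3.05 to 3.12 in the others. Among *Ppara*+/+ livers, *Sult1a1* was at 10.03 in mouse 6 and at 10.33 to 10.43 in the others. *Sult5a1* was at 5.4 in mouse 5 and at 5.78 to 5.91 in the others, and the dim gene *Sult6b2* was at 3.56 in mouse 3 and at 3.8 to 3.92 in the others.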

How the results depend on the processing

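The main fit called 6 members lower and 5 higher (1443 of all genes called). Leaving out each liver in turn gave 4 to 10 lower and 2 to 8 higher. It gave 2 higher without any 1 of *Ppara*-/- mice 2 to 6 or *Ppara*+/+ mice 1 to 4 (851 to 1261 genes). Without *Ppara*+/+ mouse 5 there were 8 higher (1262 genes), and without *Ppara*+/+ mouse 6 there were 10 lower and 8 higher (1978 genes). The most genes, 2521, were called without *Ppara*-/- mouse 1. Array weights gave 11 lower and 8 higher (2743 of all genes called). Leaving out genes under the 50th percentile gave 8 higher (2012 of 9969 genes called), and animal number as a covariate 8 higher (1836 genes). Sex as a covariate gave 2 higher (850 genes), as did the erythroid level (1016 genes) and a block for low against high animal numbers (936 genes). The 6 lowest animal numbers alone gave 1 lower and 1 higher (193 genes), and the 6 highest 0 lower and 0 higher by limma (223 genes), with 7 members at an unadjusted p under 0.05. The exact Mann-Whitney test called 0 lower and 0 higher and 0 genes in all (smallest adjusted p 0.06), with 18 members and 3681 genes at an unadjusted p under 0.05. It uses ranks only, and with 6 livers per genotype its smallest p-value, that of genes without overlap, came to 0.06 after adjustment. No gene could thus be called by it here, however far apart its groups. The subsets by animal number hold fewer livers and unequal numbers of the 2 genotypes. The cause of the shifts other than that of the Mann-Whitney test was not tested.

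Over the members named and all settings, 462 differences kept their sign and their side of the threshold, 92 lost the call, 55 gained one and 9 changed sign. Those that changed sign were small and uncalled. *Ugt2b34* (0.01) was -0.02 with that block and with the erythroid level, -0.01 with sex, -0.09 in the 6 highest animal numbers, and -0.01 without *Ppara*-/- mouse 5, *Ppara*+/+ mouse 2 or *Ppara*+/+ mouse 4. *Sult1a1* was 0.04 in the 6 highest animal numbers, and *Sult1d1* was -0.02 without *Ppara*+/+ mouse 6 (-0.02 to 0.13 over the 12 livers left out). The mouse numbers were not taken as pairs, since nothing in the labels says that a number marks a litter. Same-numbered livers deviated together with correlations of 0.019 to 0.39, 2 of the 6 under 0.1. For 3 of the 6 *Ppara*-/- livers, the *Ppara*+/+ liver that correlated best bore the same number. With mouse number as a replicate block 15 members were called, 8 lower and 7 higher (1619 genes), and *Gstm1* lost its call.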
